A study of Macaca mulatta with 12 samples.

Results

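Potassium channel genes were followed in the dorsal raphe of 12 female rhesus monkeys (Macaca mulatta) on an Affymetrix rhesus array, through every gene whose symbol begins with KCN. These were 74 of the 14132 genes that probe sets carrying a single symbol named. They were measured by 112 probe sets, a probe set being the group of array probes that reads 1 transcript sequence. The monkeys formed 4 groups of 3, and each array held the RNA of 1 monkey. Silastic capsules, set under the skin for 1 month before euthanasia, held crystalline estrogen plus progesterone, estrogen, progesterone or, in the placebo group, no steroid named in the labels. Only the placebo titles bear the letters OVX, taken to mean ovariectomized, and whether the steroid-treated monkeys were also ovariectomized is not said. The group of progesterone alone bears EP in its titles and P in its descriptions, and the steroid named in the titles was followed. Nothing in the labels gives the animals' ages or the steroid levels reached. The comparisons ask how each ovarian steroid, alone and combined, relates to channel transcripts in a tissue block that holds serotonin neurons along with other neurons, glia and vessels. In such bulk tissue, fewer cells of a type and less RNA per cell cannot be told apart.

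Potassium channels carry the current that brings a neuron back toward rest after a spike and holds it there between spikes. Voltage-gated (Kv) channels open on depolarization. Inward rectifiers pass current near rest and include the channels that serotonin autoreceptors open through G proteins. Tandem-pore channels leak at rest, and calcium-activated channels contribute to the afterhyperpolarization known from serotonin neurons. Accessory subunits and modifier subunits set how fast the pores open and how many reach the membrane.

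The 12 arrays had median intensities of 71.1 to 98.6 on the deposited linear scale, and the values below are log2 intensities after quantile normalization. The first arrays of estrogen plus progesterone, estrogen and placebo stood apart from the other 9 on the first principal component, at -44.0, -44.9 and -51.6 against -1.64 to 29.0. The 3 progesterone arrays lay at -54.5 to -14.1 on the second component, where the other 9 lay at 0.50 to 20.4. The progesterone arrays also had the lowest ratios of 3′ to 5′ probes for elongation factor 1-alpha, a control for RNA length, with log2 ratios of -0.52 to -0.25 against -0.06 to 0.56 in the other groups. The other 2 such controls did not share this pattern, since the actin ratios were 0.78 to 1.22 in the progesterone arrays against 0.12 to 1.06 in the others, and the GAPDH ratios were 0.11 to 0.60 against 0.35 to 0.83. Of 7 serotonin neuron markers, 5 had a probe set. FEV, SLC18A2, GCH1 and TPH2 passed the filter on low intensity, whereas HTR1A (mean 5.07) lay within the range of the array's tag controls, and SLC6A4 and DDC were not analysed here. The summed intensity of the 5 markers was 2050 to 2743 with estrogen plus progesterone, 2408 to 3448 with estrogen, 1518 to 2102 with progesterone and 2106 to 3186 with placebo. The second estrogen array had the highest sum for 7 cerebellar markers, 2980, against 955 to 2134 on the other 11 arrays.

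Of the 112 KCN probe sets, 60 for 45 genes had a mean at or above log2 6.31, the median of all probe set means, and were tested. The other 52 fell under this filter, and 29 genes had no tested probe set. Among the 52 were 27 probe sets no brighter than log2 5.13, the level that 16 of the 17 tag controls did not exceed (the remaining one had a mean of 6.43). The tested probe sets nearest the filter were those of KCNMA1 (6.34), the pore of the large-conductance calcium-activated channel, and of KCNK17, KCNJ8 and KCNH8 (each 6.39), while KCNJ5 (6.29) and a second KCNS2 set (6.26) lay just under it. Brightness depends on the probes as well as on the RNA, so these levels give no order of expression between genes.

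**Figure D1:**
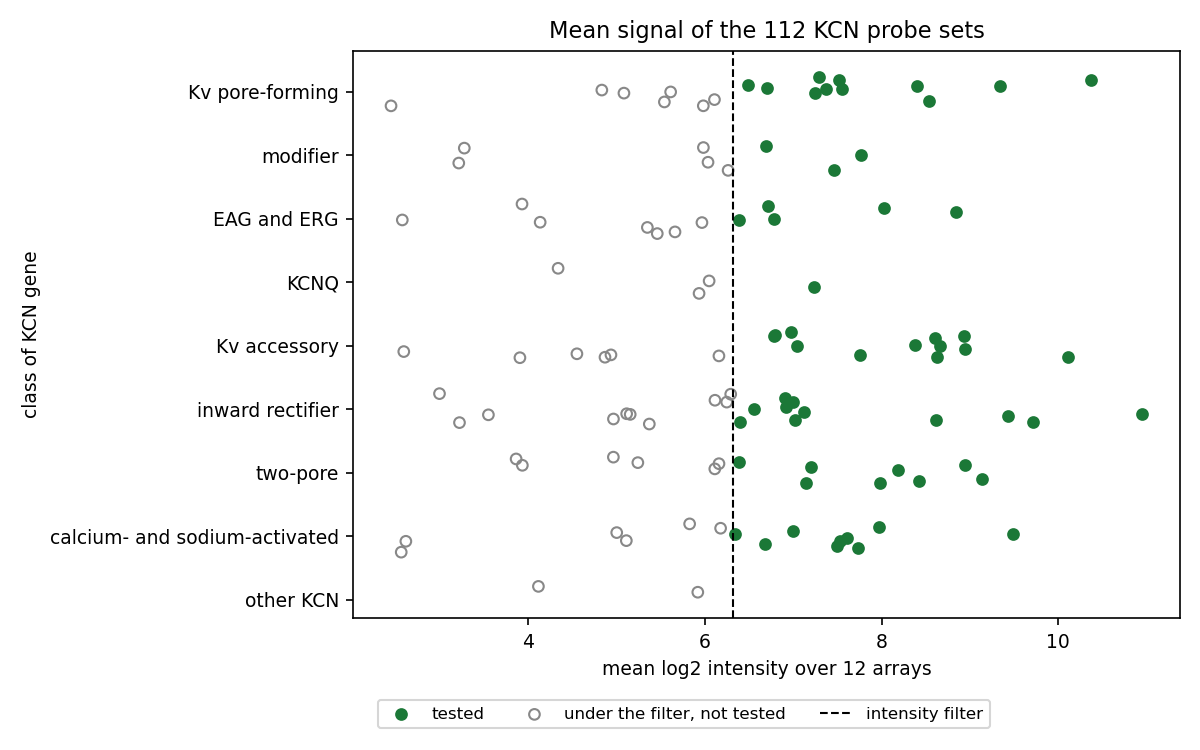
Mean log2 intensity over the 12 arrays (horizontal axis) of each of the 112 KCN probe sets, by class of gene (vertical axis, with random offsets inside a class). Filled points passed the intensity filter at 6.31 (dashed line) and were tested, open points were not, and tested probe sets occur in 8 of the 9 classes.

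The bright end of the scale was held by 5 genes. KCNJ10, the inward rectifier of astrocytes and oligodendrocytes that takes up potassium, had a mean of 10.95 and a range of 10.68 to 11.17. KCNA2, an axonal Kv1 pore, had a mean of 10.37 (10.02 to 10.83), and KCNAB2, the beta subunit that joins Kv1 channels, had 10.11 (9.49 to 10.44). KCNJ2, a strong inward rectifier, had 9.72 (9.32 to 10.03), and KCNMB4, the neuronal beta subunit of the large-conductance channel, had 9.49 (9.07 to 9.86). Each of these 5 probe sets varied by less than 1 log2 unit over the 12 monkeys. KCNK3, an acid-sensitive leak channel, was also even across groups. Its means were 9.21 ± 0.10, 9.12 ± 0.14, 9.11 ± 0.11 and 9.10 ± 0.12 with estrogen plus progesterone, estrogen, progesterone and placebo (SD, n = 3 each). The 95% intervals of its 3 differences from placebo ran from -0.30 at the lowest to 0.41 at the highest.

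No KCN probe set passed an adjusted p of 0.05 in any of the 8 contrasts of the limma fit, whose p-values were adjusted over all 26383 probe sets tested. With estrogen plus progesterone against placebo, 0 of 60 passed (0% of all tested), 3 had an unadjusted p under 0.05 (3.85% of all tested), all 3 of them lower than placebo (2.01%), and 7 had groups that did not overlap (10.5%). Of the 7, 4 were higher than placebo (4.68%) and 3 lower (5.84%). With estrogen against placebo, 0 passed (0%), 2 had an unadjusted p under 0.05 (2.65%) and 4 did not overlap (7.54%). With progesterone against placebo, 0 passed (0.133% of all tested, 35 probe sets), 9 had an unadjusted p under 0.05 (9.87%), 7 of them lower than placebo (5.14%), and 15 did not overlap (15.3%). The 9 are 15% and the 15 are 25% of the KCN sets, so both shares exceeded those of all probe sets, and no test was made of that excess. Without the intensity filter, 0 of the 112 KCN probe sets passed in this comparison by limma (0.0587% of 52766 did), and 16 had an unadjusted p under 0.05 (8.12%).

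The combination was also set against each steroid alone. With estrogen plus progesterone against estrogen, 0 passed (0%), 1 had an unadjusted p under 0.05 (2.98%) and 5 did not overlap (8.09%). With estrogen plus progesterone against progesterone, 0 passed (0.0834%, 22 probe sets), 8 had an unadjusted p under 0.05 (11.4%) and 14 did not overlap (17%). All 8 were higher in the combination (6.03% of all). Of the 14, 8 were higher (8.4% of all) and 6 lower (8.6%). The lower ones included 1 set each of KCNAB1 (-0.39 ± 0.19, limma adjusted p = 0.461) and KCNMB4 (-0.47 ± 0.25, 0.503). The tested sets of each of these genes did not all share a sign in this comparison. These comparisons share groups of arrays with each other and with those against placebo, so their counts are not independent.

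Over the 6 arrays with estrogen against the 6 without, 0 of 60 passed (0%), 8 had an unadjusted p under 0.05 (7.63%) and none of the 60 separated the arrays (0.299% of all did). Over the 6 arrays with progesterone against the 6 without, 0 passed (0%), 6 had an unadjusted p under 0.05 (6.25%), all of them lower with progesterone (3.1%), and 1 separated the arrays (0.224%). The interaction of the steroids called 0 (0%) and gave 3 with an unadjusted p under 0.05 (6.4%). The median KCN difference from placebo was 0.03 with estrogen plus progesterone, 0.02 with estrogen and -0.08 with progesterone, beside -0.01, -0.01 and -0.02 over all probe sets tested. An exact permutation test of 1 gene in 3 against 3 monkeys has 0.1 as its smallest p, and the p-values given here are therefore those of the limma model. Its 95% intervals extended 0.49 log2 units to either side, at the median over all probe sets tested.

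**Figure D2:**
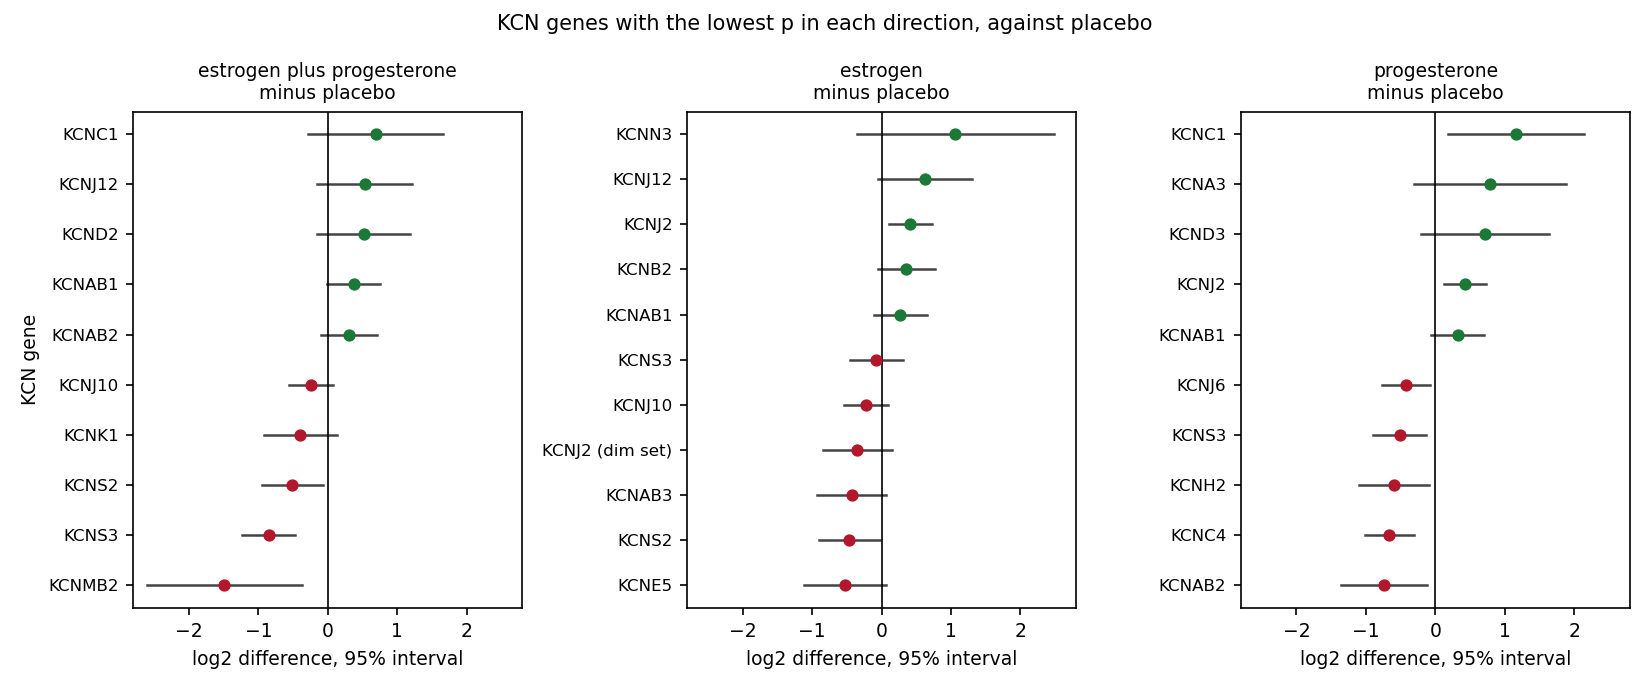
Log2 differences from placebo (points) with 95% intervals from the limma fit (lines) for KCN genes with the lowest p in each direction, and for KCNS3, in 3 panels for estrogen plus progesterone, estrogen and progesterone. KCNMB2 and KCNS3 lie farthest below 0 with the combination, at -1.49 and -0.85, and none of the differences passed an adjusted p of 0.05.

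The modifier class, subunits that open no pore alone but alter the Kv2 channels they join, held the probe set with the lowest p. KCNS3 (Kv9.3) had log2 intensities of 6.69, 7.06 and 7.18 with estrogen plus progesterone, 7.88, 7.50 and 7.88 with estrogen, 7.21, 7.25 and 7.48 with progesterone, and 7.95, 7.79 and 7.74 with placebo. All 6 monkeys given progesterone, with a median of 7.19, thus lay below all 6 without it, with a median of 7.83, though the gap between the highest of the lower 6 (7.48) and the lowest of the upper 6 (7.50) was narrow. KCNS3 was the 1 KCN probe set of 60 that separated these arrays, against 0.144% of all probe sets in this direction. The difference was -0.65 ± 0.12 (SE; 95% interval -0.92 to -0.38), or 1.56-fold lower, with a limma p of 0.00024 that did not hold after adjustment (adjusted p = 0.234).

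The group means of KCNS3 were 6.97 ± 0.26 with estrogen plus progesterone, 7.75 ± 0.22 with estrogen, 7.31 ± 0.15 with progesterone and 7.83 ± 0.11 with placebo (SD, n = 3 each). The limma difference from placebo was -0.85 ± 0.17 with estrogen plus progesterone (1.81-fold lower, adjusted p = 0.999), -0.08 ± 0.17 with estrogen (adjusted p = 0.9997) and -0.51 ± 0.17 with progesterone (adjusted p = 0.362). The combination differed from estrogen by -0.78 ± 0.17 (limma adjusted p = 0.9999), with no overlap of the 3 and 3 monkeys. It differed from progesterone by -0.34 ± 0.17 (limma adjusted p = 0.487), and the interaction was -0.26 ± 0.25 (adjusted p = 0.884), so that the size of the progesterone difference was not shown to depend on estrogen. Without the 3 arrays that stood apart, the difference of the combination from placebo was -0.66 and that of progesterone present from absent -0.52. Without the first array of the combination its difference from progesterone was -0.20 and the interaction -0.12.

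The other 2 tested modifiers were KCNS2 (Kv9.2) and KCNF1 (Kv5.1). KCNS2 had 8.00, 7.53 and 7.27 with estrogen plus progesterone, 7.69, 7.69 and 7.56 with estrogen, 7.53, 7.99 and 7.61 with progesterone, and 8.28, 7.96 and 8.09 with placebo. Placebo had the highest mean, and only the estrogen arrays lay wholly below it. The differences from placebo were -0.51 ± 0.20, -0.47 ± 0.20 and -0.40 ± 0.20 for the combination, estrogen and progesterone (limma adjusted p of 0.999, 0.9997 and 0.549). KCNF1 differed from placebo by 0.12 ± 0.24, 0.03 ± 0.24 and -0.24 ± 0.24 in the same order.

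**Figure D3:**
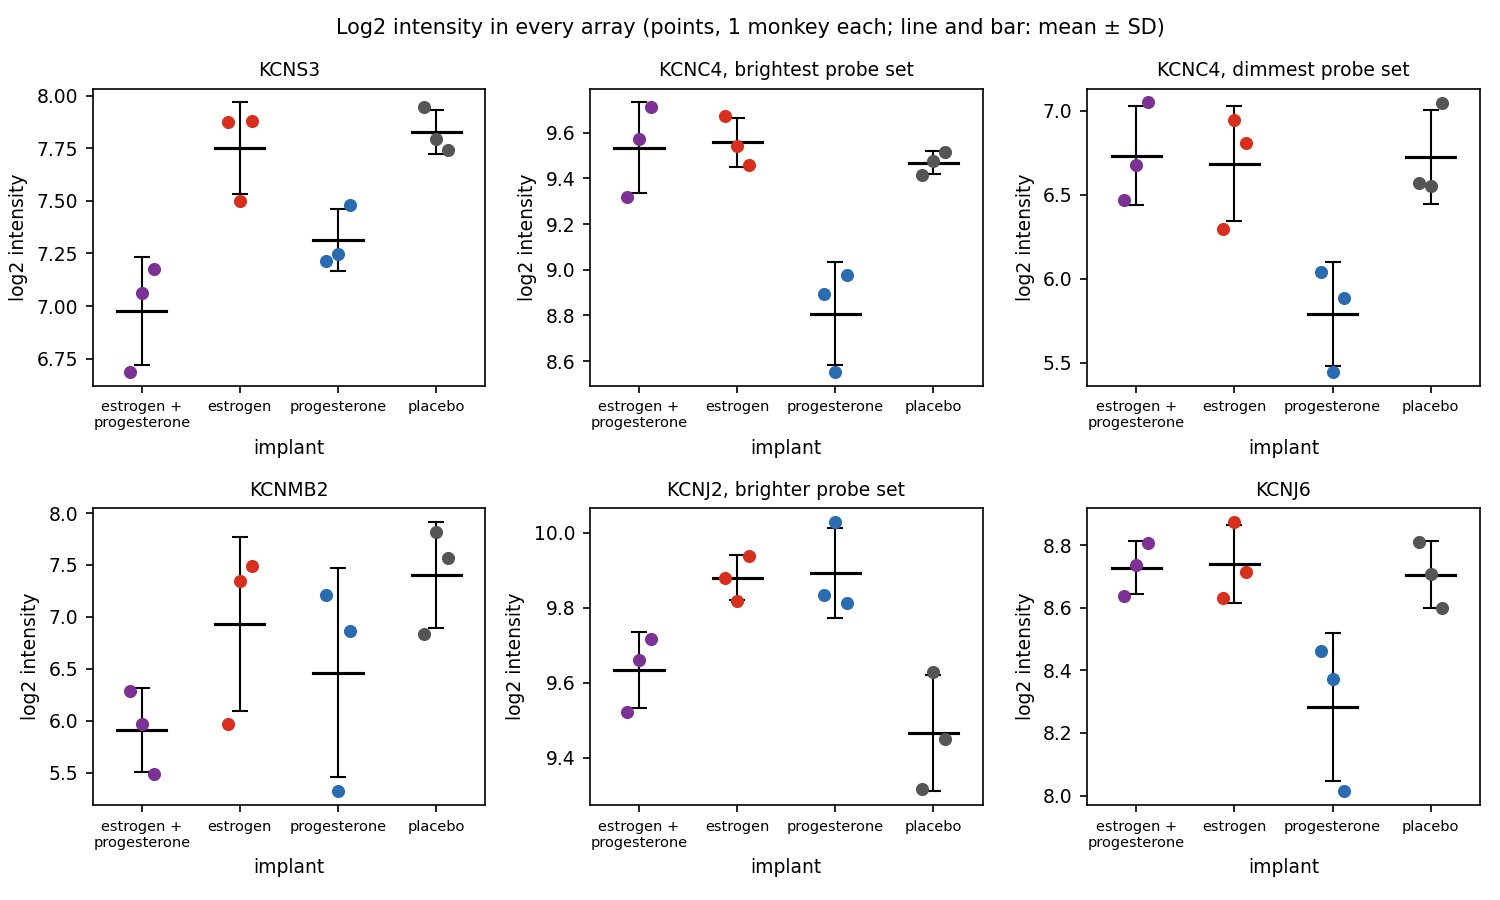
Log2 intensity (vertical axis) of 6 KCN probe sets in each of the 12 monkeys (points), by implant, with the group mean (horizontal line) and SD (bar). KCNS3 lies at 6.69 to 7.48 in the 6 monkeys given progesterone and at 7.50 to 7.95 in the other 6, and KCNC4 and KCNJ6 are lowest with progesterone alone.

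Among the pore-forming Kv genes, KCNC4 (Kv3.4), whose channels repolarize the membrane fast, had the lowest p with progesterone alone. Its brightest probe set had 9.32, 9.57 and 9.71 with estrogen plus progesterone, 9.67, 9.54 and 9.46 with estrogen, 8.90, 8.55 and 8.98 with progesterone, and 9.42, 9.47 and 9.51 with placebo. Its dimmest probe set had 6.47, 6.68 and 7.05 with estrogen plus progesterone, 6.30, 6.95 and 6.81 with estrogen, 6.04, 5.44 and 5.88 with progesterone, and 6.57, 6.55 and 7.05 with placebo. On both probe sets the 3 progesterone monkeys lay below the other 9. The share of all probe sets with such a split was not counted, and these 3 arrays also lay apart on the second component. The middle probe set was less separated, with 8.57, 8.03 and 8.26 with progesterone and 8.32, 8.49 and 8.86 with placebo.

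Progesterone against placebo gave -0.66 ± 0.16 on the brightest KCNC4 set (1.58-fold lower, limma adjusted p = 0.187), -0.93 ± 0.24 on the dimmest (adjusted p = 0.211) and -0.27 ± 0.21 on the middle one. Estrogen plus progesterone against progesterone gave 0.73 ± 0.16 (limma adjusted p = 0.157), 0.94 ± 0.24 (0.198) and 0.21 ± 0.21 in the same order. The interaction was 0.64 ± 0.23 (limma adjusted p = 0.737) on the brightest, 0.98 ± 0.34 (0.730) on the dimmest and -0.05 ± 0.30 (0.981) on the middle set, so the 3 sets did not share a sign. The progesterone arrays are also those with the lowest elongation factor 3′ to 5′ ratios, though not the lowest actin ratios. Their serotonin marker sums, at 1518 to 2102, lay just below those of all 3 placebo arrays, at 2106 to 3186. Each single marker in the sum overlapped between these groups. The means of FEV, SLC18A2, GCH1 and TPH2 were lower with progesterone, and that of HTR1A was higher (5.28 against 4.51). The part of the ratios or of these markers in the KCNC4 difference, or in the other differences of the progesterone arrays, was not tested.

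The remaining pore-forming Kv genes had few differences beyond their spread. Of the 11 tested probe sets of this class, 10, 9 and 8 were above placebo with the combination, estrogen and progesterone, with median differences of 0.18, 0.26 and 0.19. Over all probe sets tested the shares above placebo were 47.9%, 48.7% and 46.7%, which also apply beside the counts of the classes below. The 11 sets read only 8 genes, and the 3 counts share the same placebo arrays. The first placebo array weighed on 3 of these probe sets. KCNA3 (Kv1.3), a Kv1 pore also known from immune cells, had 6.50 on that array and 8.64 and 8.57 on the other 2 placebo arrays on its brighter set, and 5.37 against 7.66 and 7.76 on its dimmer set. KCNC1 (Kv3.1), a pore of fast-spiking neurons, had 5.28 on that array and 7.07 and 7.54 on the others.

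KCNC1 had 7.58, 7.26 and 7.11 with estrogen plus progesterone, 7.52, 7.20 and 6.98 with estrogen and 8.07, 7.64 and 7.67 with progesterone. The progesterone difference from placebo was 1.16 ± 0.45 (limma adjusted p = 0.424) and became 0.49 without the first placebo array. That of the combination was 0.69 ± 0.45 (limma adjusted p = 0.999), 0.02 without this array, 1.14 without the third placebo array and -0.12 without the 3 arrays that stood apart. KCNA3 was above placebo by 0.79 ± 0.50 with progesterone (limma adjusted p = 0.661), and by 0.08 without the first placebo array, and its dimmer set gave 0.65 ± 0.58.

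**Figure D4:**
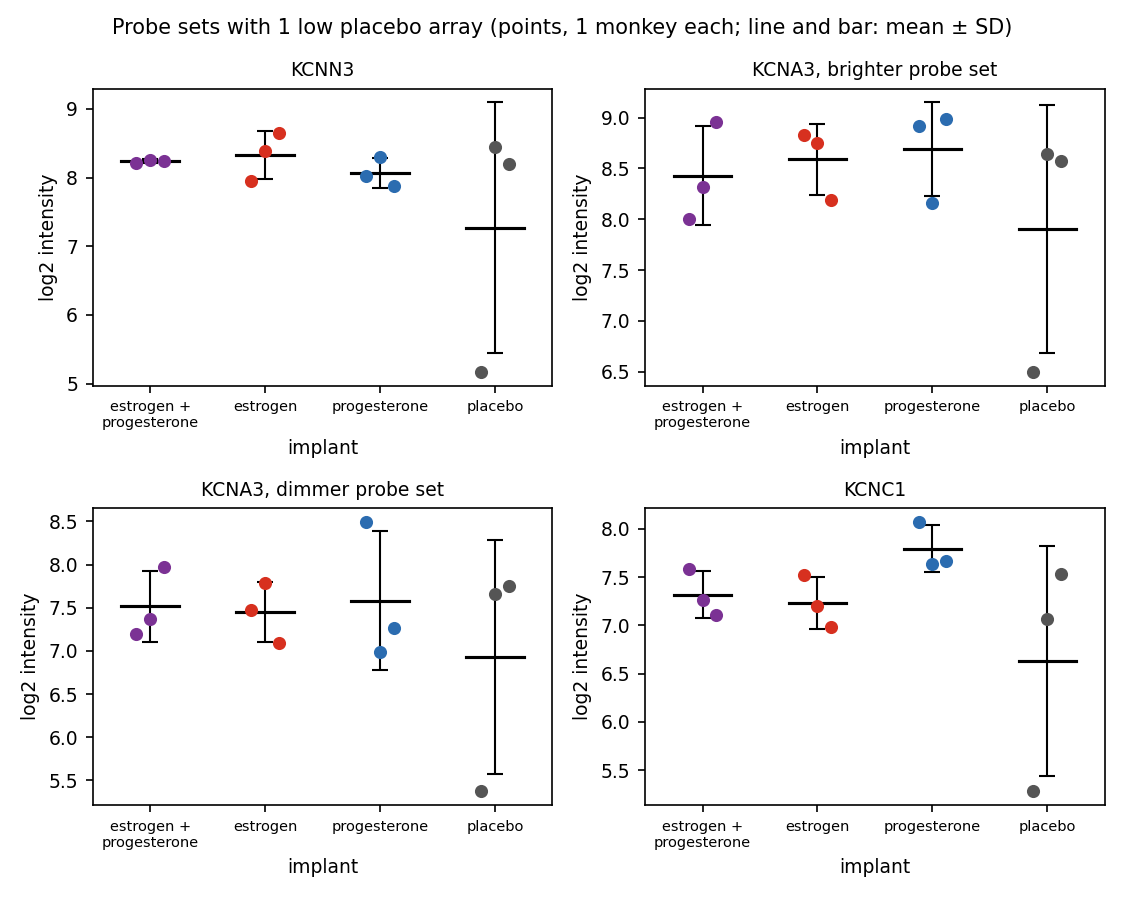
Log2 intensity (vertical axis) in each of the 12 monkeys (points), by implant, for 4 KCN probe sets in which 1 placebo array lies far below the rest, with the group mean (line) and SD (bar). The low point is the first placebo array each time, at 5.17 for KCNN3, 6.50 and 5.37 for KCNA3 and 5.28 for KCNC1.

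The A-type pores KCND2 and KCND3, which delay firing, and KCNB2 (Kv2.2) were among those with the lowest p in 1 or 2 comparisons each. KCND2 had 7.76, 7.61 and 7.90 with estrogen plus progesterone and 7.10, 7.16 and 7.46 with placebo, groups that did not overlap, with a difference of 0.52 ± 0.31 (limma adjusted p = 0.999). Over the 6 monkeys given progesterone against the 6 without, which overlapped, KCND2 differed by 0.41 ± 0.22 (limma adjusted p = 0.819), and by 0.26 without the first progesterone array. KCND3 had 6.75, 7.62 and 6.91 with progesterone and 6.72, 6.53 and 5.89 with placebo, a difference of 0.72 ± 0.42 (limma adjusted p = 0.629) that was 0.45 without the second progesterone array and 0.47 without the third placebo array. KCNB2 had 7.59, 7.47 and 7.36 with estrogen and 7.04, 7.19 and 7.12 with placebo, a difference of 0.36 ± 0.19 (limma adjusted p = 0.9997). The treated monkeys lay wholly above placebo for KCND2 with the combination, KCND3 with progesterone and KCNB2 with estrogen, each difference being under 2 SE. With progesterone alone, KCNB2 was as low as 6.84, under all 3 placebo values.

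In the EAG and ERG class, channels related to ether-a-go-go that shape firing slowly, KCNH2 (ERG1) was read by 2 tested probe sets. The brighter had 8.99, 8.87 and 9.15 with estrogen plus progesterone, 8.73, 9.09 and 9.11 with estrogen, 8.62, 8.16 and 8.74 with progesterone, and 8.77, 8.99 and 8.88 with placebo. The dimmer had 7.76, 7.89 and 8.26 with estrogen plus progesterone, 8.58, 7.92 and 8.40 with estrogen, 7.40, 7.46 and 8.04 with progesterone, and 8.18, 8.42 and 8.08 with placebo. On both, all progesterone monkeys lay below all placebo monkeys, by -0.37 ± 0.18 on the brighter and -0.59 ± 0.23 on the dimmer (limma adjusted p of 0.545 and 0.432).

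Of the 5 tested probe sets of this class, 3 were above placebo with the combination, 4 with estrogen and 1 with progesterone, with median differences of 0.05, 0.07 and -0.37. The 1 set above placebo with progesterone was KCNH5 (EAG2), which was also higher in the 6 monkeys given progesterone by 0.53 ± 0.29 (limma adjusted p = 0.836), and by 0.31 without the first array of the combination. KCNQ3, a subunit of the M-current that muscarinic receptors close, was the 1 tested probe set of the KCNQ class. It differed from placebo by -0.22 ± 0.18, -0.0032 ± 0.18 and -0.32 ± 0.18 with the combination, estrogen and progesterone.

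Of the 12 tested probe sets of accessory subunits, 5, 5 and 4 were above placebo with the combination, estrogen and progesterone, with medians of -0.01, -0.06 and -0.11. KCNAB2 had its lowest group means with progesterone on its 2 brighter probe sets. The brightest had 10.41, 10.44 and 10.36 with estrogen plus progesterone, 10.09, 10.38 and 9.84 with estrogen, 10.08, 9.95 and 9.49 with progesterone, and 10.20, 10.09 and 10.00 with placebo. The second had 9.31, 8.59 and 8.73 with estrogen plus progesterone, 9.28, 8.72 and 8.83 with estrogen, 8.26, 7.92 and 7.93 with progesterone, and 8.15, 9.05 and 9.13 with placebo. The combination lay wholly above progesterone on both sets, whereas on each the progesterone and placebo monkeys overlapped.

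Estrogen plus progesterone exceeded progesterone by 0.56 ± 0.19 (limma adjusted p = 0.299) on the brightest KCNAB2 set, by 0.84 ± 0.28 (0.304) on the second and by 0.17 ± 0.25 (0.844) on the third. Progesterone against placebo gave -0.74 ± 0.28 on the second set (limma adjusted p = 0.424), and -1.05 without the first placebo array. KCNAB1, the related beta subunit that speeds inactivation, had 9.05, 9.20 and 9.00 with estrogen plus progesterone, 9.00, 9.25 and 8.68 with estrogen, 8.97, 9.13 and 9.00 with progesterone, and 8.49, 8.88 and 8.75 with placebo on its brighter set. The differences from placebo were 0.37 ± 0.17, 0.27 ± 0.17 and 0.32 ± 0.17 (limma adjusted p of 0.999, 0.9997 and 0.578), and the combination and progesterone arrays did not overlap with placebo. The estrogen difference was 0.13 without the second estrogen array, and the progesterone difference was 0.21 without the first placebo array and 0.20 with medians aligned in place of quantile normalization. The other tested KCNAB1 set gave -0.10 ± 0.19, -0.03 ± 0.19 and 0.29 ± 0.19 in the same order, so its sign differed with the combination and with estrogen.

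KCNE5, a single-pass subunit, had 5.97, 6.40 and 6.82 with estrogen and 7.06, 6.67 and 7.05 with placebo, an overlapping pair with a difference of -0.53 ± 0.27 (limma adjusted p = 0.9997). It was -0.32 without the first estrogen array and -0.26 without the 3 arrays that stood apart. KCNAB3 differed between estrogen and placebo by -0.43 ± 0.23 (limma adjusted p = 0.9997). KCNIP3, a calcium sensor that binds Kv4 channels and is also the repressor DREAM, was below placebo with progesterone in all 3 monkeys on its tested probe set, at 8.47, 7.83 and 8.52 against 8.70, 8.68 and 8.98. Estrogen plus progesterone, at 9.29, 8.74 and 8.41, was above progesterone by 0.54 ± 0.25 (limma adjusted p = 0.437).

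Of the 11 tested probe sets of inward rectifiers, 5, 6 and 6 were above placebo with the combination, estrogen and progesterone, with medians of -0.0016, 0.03 and 0.01. They include KCNJ6 (GIRK2), a pore that G protein beta and gamma subunits open. It had 8.64, 8.74 and 8.81 with estrogen plus progesterone, 8.63, 8.87 and 8.72 with estrogen, 8.46, 8.37 and 8.01 with progesterone, and 8.81, 8.71 and 8.60 with placebo. The 3 progesterone monkeys were the lowest 3 of the 12, a split whose share over all probe sets was not counted. Progesterone differed from placebo by -0.42 ± 0.16 (limma adjusted p = 0.404), and the combination from progesterone by 0.44 ± 0.16 (0.316). The other GIRK genes with a probe set, KCNJ5 and KCNJ9, fell under the filter, at 6.29 and 5.15 on their brightest sets.

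KCNJ2 had 9.52, 9.66 and 9.72 with estrogen plus progesterone, 9.88, 9.82 and 9.94 with estrogen, 9.83, 10.03 and 9.81 with progesterone, and 9.32, 9.63 and 9.45 with placebo on its brighter probe set. Each steroid alone lay wholly above placebo, and the combination overlapped with it. The differences from placebo were 0.17 ± 0.14, 0.41 ± 0.14 and 0.43 ± 0.14 with the combination, estrogen and progesterone (limma adjusted p of 0.999, 0.9997 and 0.337), and the interaction was -0.67 ± 0.20 (adjusted p = 0.690). With medians aligned in place of quantile normalization the progesterone difference was 0.28. The dimmer KCNJ2 set gave the opposite signs, -0.17, -0.35 and -0.39, so the gene's direction was not settled by this array.

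KCNJ10 had 10.68, 10.95 and 10.84 with estrogen plus progesterone, 10.81, 10.73 and 11.00 with estrogen, 11.07, 11.13 and 11.01 with progesterone, and 11.17, 10.88 and 11.15 with placebo on its brighter set. The 6 monkeys with estrogen overlapped with the 6 without, and the difference of -0.24 ± 0.10 did not hold after adjustment (limma adjusted p = 0.649) and was -0.14 with medians aligned. KCNJ12 was above placebo by 0.53 ± 0.31 with the combination and by 0.63 ± 0.31 with estrogen (limma adjusted p of 0.999 and 0.9997). The second estrogen array had 7.96, against 6.79 and 7.14 on the other 2, and without it the estrogen difference was 0.29. The other tested KCNJ12 set gave 0.32 ± 0.41 and 0.37 ± 0.41. That second estrogen array is the one with the highest cerebellar marker sum, and the part of such cells in its KCNJ12 level was not tested. In the combination against estrogen, KCNJ4 differed by 0.40 ± 0.22, and by 0.19 without the first estrogen array. KCNJ16 differed by -0.60 ± 0.34, with 5.34 on the third combination array against 6.70 and 6.54 on the first 2 (limma adjusted p = 0.9999 for each). The KCNJ16 difference was -0.18 without the third combination array and -0.40 without the first estrogen array.

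Of the 8 tested probe sets of tandem-pore channels, 6, 3 and 2 were above placebo with the combination, estrogen and progesterone, with medians of 0.11, -0.04 and -0.08. KCNK5 (TASK2), an alkaline-activated leak channel, had 8.12, 8.61 and 8.55 with estrogen plus progesterone, 8.25, 8.80 and 8.40 with estrogen, 8.08, 7.43 and 7.56 with progesterone, and 7.89, 7.82 and 8.73 with placebo. It was higher in the 6 monkeys with estrogen by 0.54 ± 0.19 (limma adjusted p = 0.604), although 1 placebo monkey, at 8.73, lay within the estrogen range. The combination was wholly above progesterone, by 0.74 ± 0.27 (limma adjusted p = 0.341). KCNK1 (TWIK1), a weak leak channel, gave differences of opposite sign on its 2 probe sets, -0.40 ± 0.24 and 0.12 ± 0.20, with the combination against placebo. The first of these was -0.25 without the first placebo array.

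Of the 9 tested probe sets of calcium-activated channels and their subunits, 4, 4 and 5 were above placebo with the combination, estrogen and progesterone, with medians of -0.06, -0.05 and 0.26. KCNMB2, which inactivates the large-conductance channel, had the difference farthest from 0 of the 60 tested KCN probe sets in the comparisons with placebo. It had 6.28, 5.97 and 5.48 with estrogen plus progesterone, 5.97, 7.34 and 7.49 with estrogen, 7.21, 5.32 and 6.86 with progesterone, and 6.84, 7.82 and 7.56 with placebo. The combination lay wholly below placebo, and the single steroids overlapped with both. The difference of the combination from placebo was -1.49 ± 0.51 (95% interval -2.61 to -0.38, 2.81-fold lower, limma adjusted p = 0.999), and -2.00 without the 3 arrays that stood apart. The group mean of the combination, 5.91, was under the intensity filter of 6.31.

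KCNN2 and KCNN3 form small-conductance channels of the afterhyperpolarization. KCNN2 had 7.39, 7.11 and 7.44 with progesterone and 7.59, 7.66 and 7.88 with placebo, groups that did not overlap, with a difference of -0.40 ± 0.17 (limma adjusted p = 0.477). KCNN3 was 5.17 on the first placebo array and 7.87 to 8.65 on the other 11. Its difference of 1.06 ± 0.65 between estrogen and placebo (limma adjusted p = 0.9997) became 0.01 without that array, and 1.65 without the second placebo array. The 4 tested KCNMB4 sets differed in sign between progesterone and placebo, from -0.02 to 0.31. KCNMA1 differed from placebo by 0.09 ± 0.25, -0.22 ± 0.25 and -0.13 ± 0.25 with the combination, estrogen and progesterone.

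**Figure D5:**
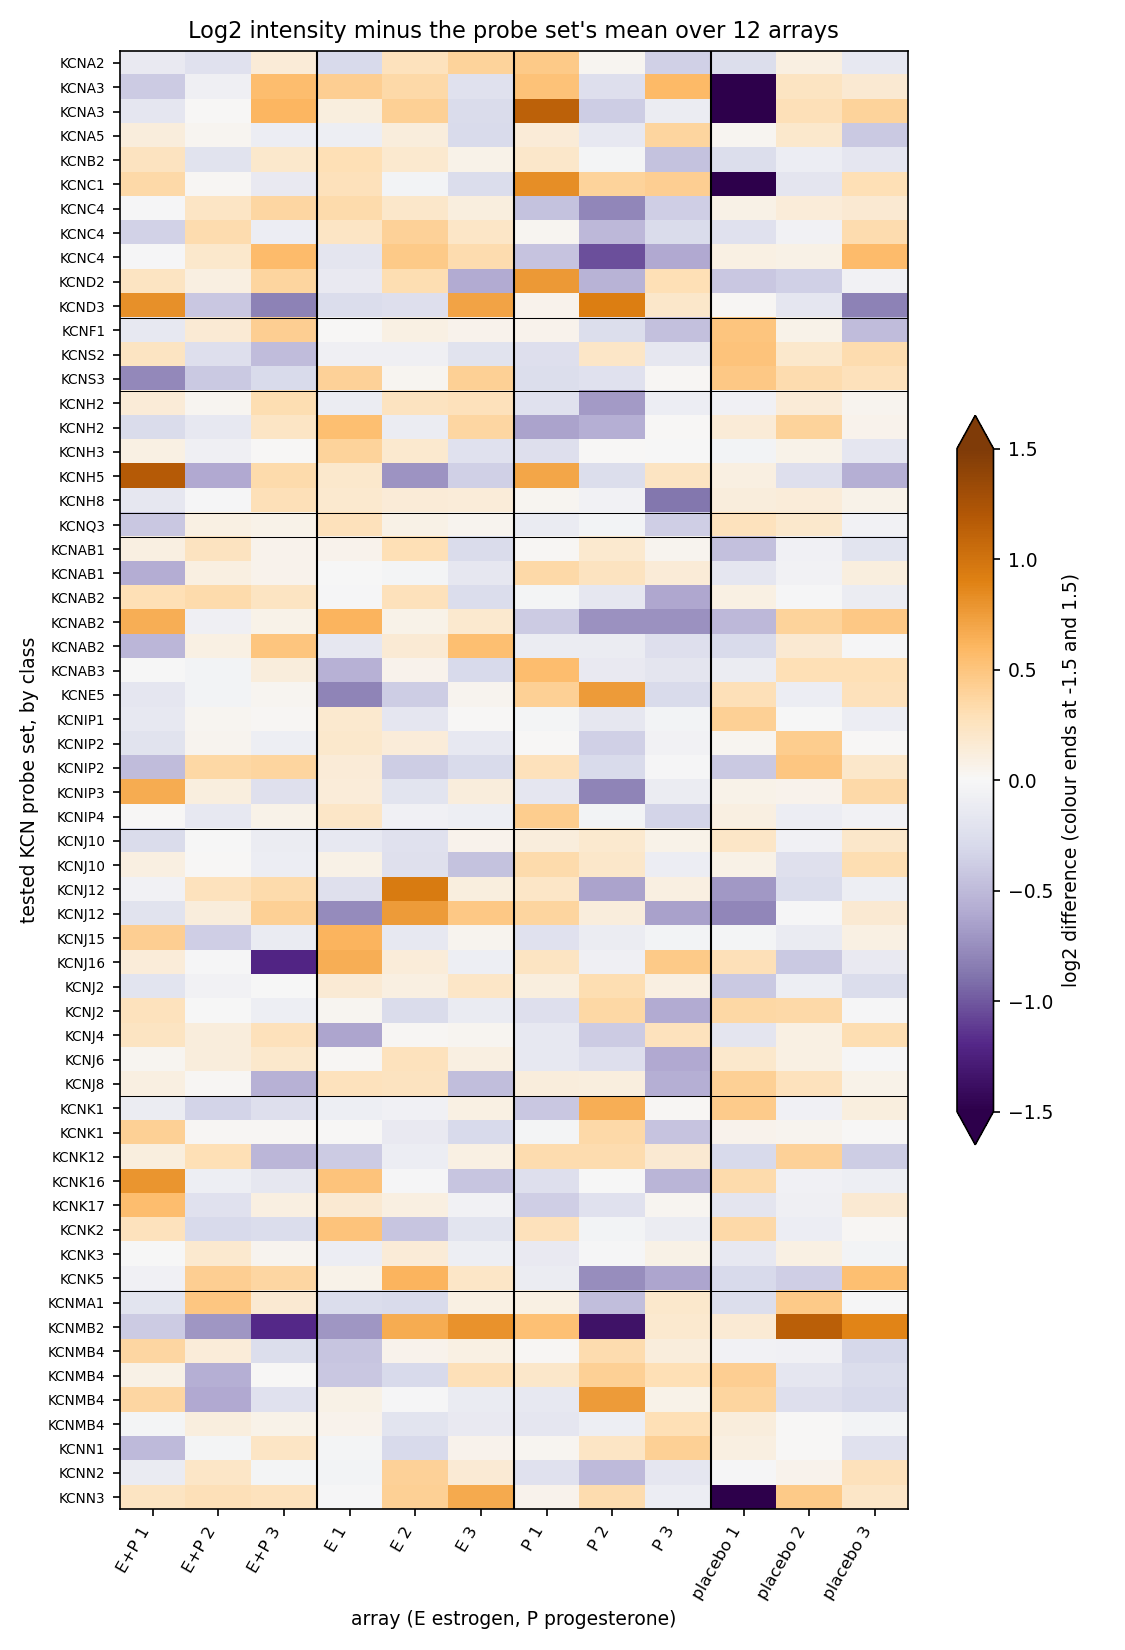
Log2 intensity of the 60 tested KCN probe sets (rows, by class) minus the mean of that probe set over the 12 arrays (columns, by group), with colour ending at -1.5 and 1.5. Dark cells of the first placebo column are KCNA3, KCNC1 and KCNN3, and no group forms an even column over all classes.

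Single arrays carried more of the KCN extremes than others. The second and the third progesterone arrays were the lowest of 12 for 11 and 10 KCN probe sets (18.3% and 16.7%, against 11.5% and 12.7% of all tested). The first placebo array was the lowest for 9 (15%, against 10.2%). These progesterone arrays were the highest of 12 for 5 and 4 (8.33% and 6.67%, against 10.9% and 11.5%). The first placebo array was the highest for 8 (13.3%, against 11.6%), as was the first progesterone array (13.3%, against 8.97%). Probe sets of the same gene often disagreed in sign. Of the 11 genes with several tested probe sets, all sets shared a sign in 5 genes with the combination, 7 with estrogen and 9 with progesterone against placebo. Between the combination and estrogen they did so in 1 gene. The SD within groups had a median of 0.29 for the KCN sets and 0.28 for all tested.

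Genes known to bind, cluster or open potassium channels were read alongside. Of 29 on the list, 14 had a probe set and 12 were tested on the brightest one. By limma 0 of the 12 passed in any contrast (0% to 0.133% of all tested). The same held over all 28 tested probe sets of these genes. At an unadjusted limma p under 0.05 there was 1 with the combination against placebo (3.85% of all tested). There was 1 with estrogen (2.65%) and 0 with progesterone (9.87%). With estrogen present against absent there were 2 (7.63%), CNTNAP2 and NEDD4L. Against placebo the 1 gene was CNTNAP2 each time, which clusters Kv1 channels beside the node of Ranvier. It had 9.43, 9.75 and 9.50 with estrogen plus progesterone, 9.74, 9.87 and 9.01 with estrogen, 9.87, 8.18 and 8.35 with progesterone, and 8.42, 7.77 and 8.80 with placebo. Its difference from placebo was 1.23 ± 0.41, 1.21 ± 0.41 and 0.47 ± 0.41, and over estrogen present against absent 0.98 ± 0.29 (limma adjusted p = 0.572). KCNA2, a Kv1 pore, differed from placebo in the same order by 0.03 ± 0.24, 0.22 ± 0.24 and 0.15 ± 0.24. GNAO1, the alpha subunit of the G protein Go, was above placebo by 0.28 ± 0.14 with the combination and 0.25 ± 0.14 with progesterone (limma adjusted p of 0.999 and 0.594).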

How the data were processed

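RNA of a dorsal raphe block from 12 monkeys, 1 array each, was extracted with Trizol and Qiagen columns and labelled with biotin, per the labels' protocols. The authors deposited 1 linear intensity for each probe set, scaled per array, since the mean trimmed by 2% at each end was 200.0 on all 12. The sources used here do not give the software.

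After 99 controls were taken out of 52865 probe sets, the 52766 left were floored at an intensity of 4.99 (5th percentile), log2 transformed, quantile normalized because array medians (6.15 to 6.62) differed by more than 0.15, and filtered at the median of their means (log2 6.31, intensity 79.5), which left 26383. Gene names came from the platform's annotation table. 24956 probe sets had 1 symbol, 361 had several and 27449 none; KCN genes were taken from probe sets with 1 symbol. No sequences or genome positions were used.

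limma 3.58.1 (lmFit and eBayes, R 4.3.3) was fitted to the 12 arrays with a mean for each of the 4 groups and no block (degrees of freedom 8 residual, 3.54 prior), in 8 two-sided contrasts with Benjamini-Hochberg adjustment over all probe sets tested at a threshold of 0.05. ± after a difference is the SE of that fit. The number of arrays limits the precision, and since the labels give 1 monkey per array the spread is between animals. The steps were run on simulated data with independent normal noise and shifts planted in the progesterone group only. That run checks the code, and it holds no arrays that stand apart as those here do. Plots used Python 3.11.15 and matplotlib 3.10.9.

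Groups share replicate numbers 1 to 3 in the labels, with no batch or day stated. By their values, same-numbered arrays of the combination deviated together with those of placebo (correlations 0.103 to 0.274) and of estrogen (0.142 to 0.507). All were above 0.1, the limit set here for pairing, which no other pair of groups met. Some differently numbered arrays exceeded it too. The second combination array had 0.115 with the third placebo array and 0.267 with the third estrogen array. The values therefore do not establish pairing by number, and the reported fit carried no block. The alternative with a block carried it in all 4 groups, and no fit paired the arrays of these comparisons alone. Over all groups the median was 0.027 for 18 same-numbered pairs and 0.012 for 36 others.

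Members, gene lists and alternatives were chosen with earlier results of these data known. Named genes were KCNS3, the 5 lowest p in each direction against placebo, the 3 lowest in each other contrast, the 5 brightest, and a list of channels described by level. KCNN2, KCNH8, KCNK17 and the values of single arrays outside this rule were chosen after their values were seen. Alternatives were to align medians in place of quantile normalization, to filter at the 75th percentile or not at all, to raise the floor to the 25th percentile, and to use the brightest probe set per gene, only the groups compared, a replicate block, or fewer arrays.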

Additional observations from a re-analysis of the deposited data

How the results depend on the processing

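The count of KCN probe sets past the threshold was 0 in all 8 contrasts under each alternative run, including every fit that left out 1 array, where it ranged from 0 to 0. With the replicate number as a block in all 4 groups it was also 0 in each contrast. Since it was 0 without the block, this does not tell whether the arrays were paired. The number with an unadjusted limma p under 0.05 did vary. Against placebo it was 1.67% to 8.89% of the KCN sets tested with the combination (2.4% to 5.95% of all sets in the same fits), 1.67% to 6.67% with estrogen (1.9% to 4.34%) and 11.7% to 25% with progesterone (7.36% to 11.7%), where between 24 and 112 KCN probe sets were tested. The lowest adjusted p of any KCN probe set was 0.076, for progesterone against placebo, and that contrast ranged up to 0.443. For KCNS3 with progesterone present against absent the adjusted p ranged from 0.225 to 0.583 and the log2 difference stayed negative. Of 1198 values for 63 named gene and contrast pairs, 1196 kept their sign and 0 passed the threshold. The 2 that turned were KCNS3 with estrogen against placebo, 0.050 without the second estrogen array (leaving out 1 array at a time gave -0.14 to 0.050), and KCNC1 with the combination against placebo, -0.12 without the 3 arrays that stood apart, where the first placebo array, low for KCNC1, is left out. A change of filter, the brightest probe set per gene and the replicate block cannot alter a log2 difference in this fit. Most pairs were also picked for their low p, so the count of kept signs says little about stability. The 3 animals a group and the signal of dim probe sets limit what can be called, and 52 of 112 KCN probe sets were not tested.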

Other observations

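Some KCN probe sets under the intensity filter stood out in a limma fit without the filter, in which none passed the threshold with progesterone against placebo. The probe sets given here were chosen after their values were seen, apart from KCNA1. KCNA1 (Kv1.1), an axonal Kv1 pore, had log2 intensities of 6.25, 5.38 and 4.67 with estrogen plus progesterone, 5.43, 5.71 and 5.59 with estrogen, 7.40, 7.12 and 6.33 with progesterone, and 3.60, 4.38 and 5.48 with placebo. All 3 progesterone monkeys were above the other 9 (limma adjusted p = 0.197 against placebo). How many of all probe sets showed this split was not counted. The placebo mean, 4.48, was under log2 5.13, the level that 16 of the 17 tag controls did not exceed, so the size of the difference is not given.

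The brighter KCNQ1 set had 5.63, 5.44 and 4.96 with progesterone and 7.35, 7.02 and 6.54 with placebo, a difference of -1.62 ± 0.45 (limma adjusted p = 0.379). A dim KCNIP3 set had 6.22, 6.02 and 5.50 with estrogen plus progesterone and 3.36, 2.89 and 2.73 with progesterone (limma adjusted p = 0.327). The progesterone mean, 2.99, was likewise under the level of the tag controls, and no size is given. The tested KCNIP3 set gave 0.54 in that comparison.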
